A study of Mus musculus with 6 samples.

Results

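Mechanosensitive ion channels open, directly or through attached proteins, when a membrane or its anchorage is under tension. A set of 10 such genes was taken by symbol from the deposited expression table of cultured mouse nephrogenic stroma: Piezo1, Piezo2, Trpv4, Trpc1, Trpc6, Trpm7, Kcnk2, Pkd1, Pkd2 and Tmem63a. Each symbol matched 1 row, so 10 of 78409 rows were read, and 9 of the 10 held enough counts to be tested among 14834 genes. Nephrogenic stroma is the connective tissue of the outer zone of the fetal kidney, where nephrons form. The cells came from wild-type CD1 mice at embryonic day 18. They were sorted for the surface receptor PDGFRa and cultured for 18 h on silicone (PDMS) coverslips. Bovine fibronectin solution at 50000 ng/mL had coated the high adhesion coverslips (3 libraries) and 500 ng/mL the low adhesion ones (3 libraries). Kidneys were pooled, 3 litters each gave 1 library of each kind, and all cells met the ROCK inhibitor Y27632 in the sorting medium and serum in culture. The labels do not say how many animals a litter pool held.

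PIEZO1 and PIEZO2 are large trimeric cation channels opened by membrane tension. PIEZO1 is best known from endothelium and red blood cells, and PIEZO2 from the sensory neurons of touch, with expression in mesangial and renin cells described in mouse kidney. TREK-1, encoded by Kcnk2, is a potassium channel that stretch opens directly, and TMEM63A belongs to the OSCA/TMEM63 family of tension-gated cation channels. For TRPC1, TRPC6, TRPV4, TRPM7 and the polycystins, direct gating by force is debated. Polycystin-1 (Pkd1) and polycystin-2 (Pkd2) act together at the primary cilium, and loss of either causes polycystic kidney disease. All of these messages encode proteins whose channel activity the RNA data do not measure.

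Library totals of the deposited counts ran from 12596249 to 13508257, and 3 counts, the detection floor used here, equalled 0.222 to 0.238 CPM (a gene's count relative to its library's total, so that libraries of different depth compare). The 10 channels held 197.5 to 211.9 CPM together in the high adhesion libraries and 196.7 to 211 CPM in the low adhesion libraries. Of 9 fixed markers of nephrogenic stroma all were detected, from Vim at 3622 and 3336 CPM down to Dcn at 9.29 and 10.8 CPM (means of the high and low adhesion libraries). Markers of other cell types were also detected. Podocyte markers summed to 35.4 to 50.9 CPM at high and 39.0 to 49.5 CPM at low adhesion, although the podocyte gene Nphs1 and the Schwann cell gene Sox10, picked after their values were seen, averaged at most 0.135 CPM in either group. The epithelial keratin gene Krt18 averaged 544 and 334 CPM at high and low adhesion. Of the other epithelial markers, Krt8 averaged 17.9 and 9.77 CPM and Cldn6 2.35 and 0.556 CPM. Gata3, on the same list, went the other way, at 34.4 and 44.6 CPM.

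The question of the comparison was whether the amount of fibronectin under the cells went with a change in the mRNA of these channels. Piezo2 was the single channel called different, and it was lower at high adhesion. The other 8 tested channels did not pass an adjusted p of 0.05 (edgeR quasi-likelihood test, litter as a block). That is 1 of 9 tested channels, or 11.1%, beside a background of 9.55% of all tested genes called in either direction and 4.83% called lower. The count of called channels was thus near the background share. The median log2 fold change of the 9 was 0.0068, beside -0.0012 over all tested genes. At an unadjusted p of 0.05, 4 of the 9 passed, namely Piezo1, Piezo2, Kcnk2 and Pkd2, beside 3250 of all 14834 tested genes.

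Piezo2 (ENSMUSG00000041482) had 12.2, 12.3 and 13.1 CPM in the high adhesion libraries of litters 1, 2 and 3, against 17.9, 16.1 and 20.1 CPM in the low adhesion libraries of the same litters. These values rest on 158, 153 and 177 counts at high and 235, 212 and 266 counts at low adhesion, all whole numbers. The 3 high adhesion libraries lay close together and below every low adhesion library, a separation that 15.6% of all tested genes showed in 1 or the other direction. Means were 12.5 ± 0.46 and 18.0 ± 2.01 CPM (SD, n = 3 each) at high and low adhesion. The log2 fold change was -0.52 ± 0.09 (standard error, 95% interval -0.71 to -0.34, edgeR adjusted p = 0.000195), a 1.44-fold fall. Within litters 1, 2 and 3 the log2 difference was -0.53, -0.37 and -0.60. Piezo2 passed in DESeq2 with litter (adjusted p = 0.0445) and with any 1 litter left out, and it did not pass in edgeR without the replicate block (adjusted p = 0.164). In bulk RNA, fewer cells that express a gene and less RNA of it per cell cannot be told apart.

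**Figure D1:**
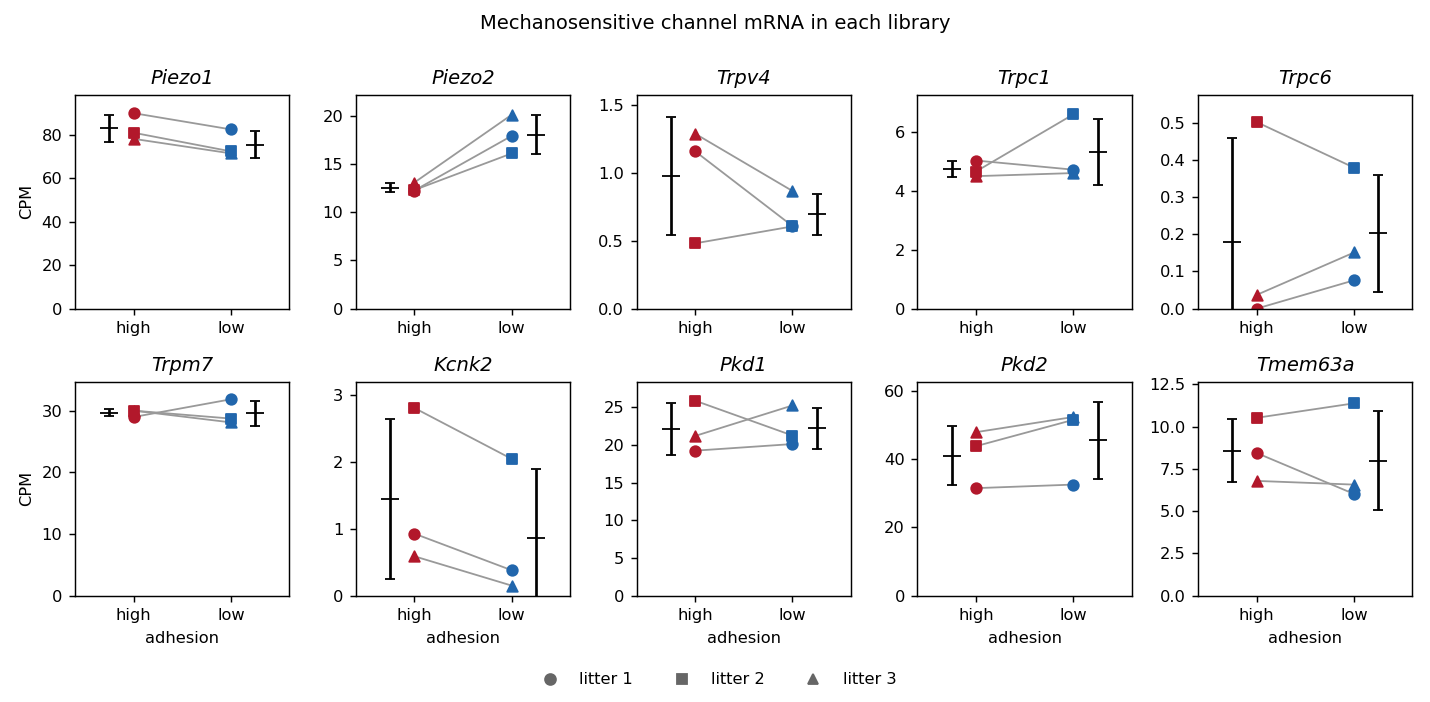
CPM (y axes, linear, from 0) of the 10 channels in each library, with high adhesion at the left and low adhesion at the right of every panel; symbols are litters, grey lines join libraries of 1 litter, and black bars are mean ± SD of 3 libraries, cut off at 0. Piezo2 sits at 12.2 to 13.1 CPM at high and 16.1 to 20.1 CPM at low adhesion, without overlap, while Pkd2 and Kcnk2 are spread by litter.

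The genes whose profile over the 6 libraries lay nearest to that of Piezo2 were Tenm3, Crip1 and Meis2, among genes of at least 5 CPM. Likeness was the root mean square distance between log2 values, each gene centred on its own mean, and came to 0.047 for Tenm3, 0.0753 for Crip1 and 0.0773 for Meis2. Since Piezo2 separates the substrates, genes chosen this way do so too, and their calls are a description. Tenm3, a teneurin adhesion receptor, averaged 28.7 ± 0.98 and 38.7 ± 3.44 CPM (SD, n = 3 each) at high and low adhesion. Crip1, a small LIM-domain protein, averaged 5.93 ± 0.27 and 8.72 ± 0.61 CPM. Meis2, a homeobox factor of renal stroma, averaged 157 ± 7.94 and 207 ± 10.4 CPM. All 3 were lower at high adhesion in 3 of 3 litters.

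**Figure D2:**
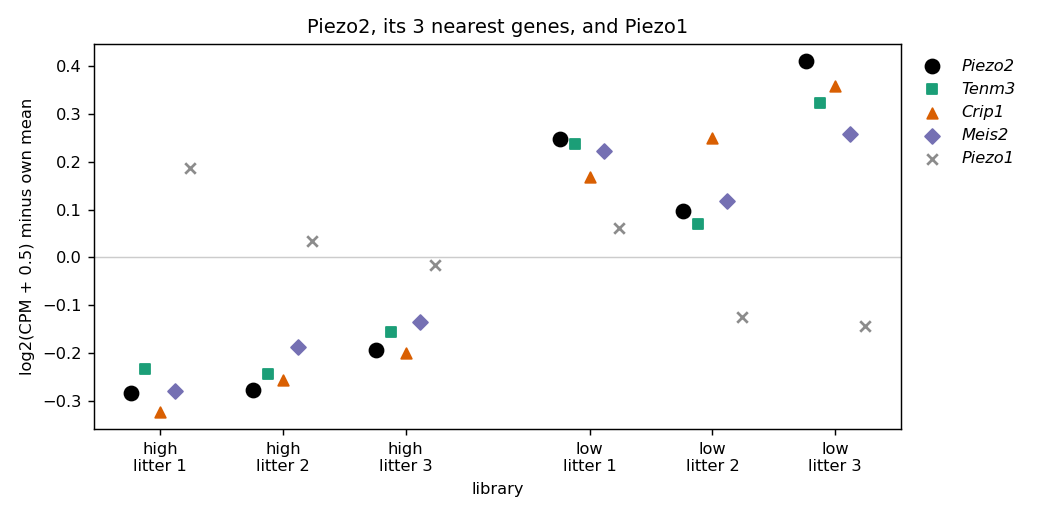
Log2(CPM + 0.5) minus each gene's own mean over 6 libraries (y axis) by library (x axis, high adhesion at the left) for Piezo2, Tenm3, Crip1 and Meis2, and for Piezo1 as a contrast. The first 4 genes lie below 0 in all high adhesion and above 0 in all low adhesion libraries, and Piezo1 does not follow them.

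Cell type markers differed between the same libraries, and their counts stand beside the background of 9.55% of all tested genes. Of 9 nephrogenic stroma markers 6 fell and 1 (Vim) rose at high adhesion, among them Pdgfra at 21.0 ± 4.64 and 30.7 ± 3.67 CPM and Foxd1, a factor of stromal progenitors, at 170 ± 12.4 and 204 ± 19.0 CPM (SD, n = 3 each, high and low). Their summed level, carried by Vim and Col1a1, was 5142 to 5984 CPM at high and 5260 to 5862 CPM at low adhesion. Of 8 markers of pericytes, mesangium and smooth muscle 3 fell and 1 rose, with sums of 259.7 to 351.2 CPM at high and 250.7 to 341.9 CPM at low adhesion. Of these 4, DESeq2 called 1 (Gata3); Myh11 (adjusted p = 0.473) and Rgs5 (adjusted p = 0.0507) did not pass in edgeR without litter 2, nor Cspg4 without litter 3 (adjusted p = 0.194). Of 7 neural and Schwann cell markers 2 were tested and both rose, with sums of 15.9 to 19.5 CPM at high and 8.59 to 11.3 CPM at low adhesion. Tubb3 passed in DESeq2 and without any 1 litter, and Elavl4 did not pass in DESeq2 (adjusted p = 0.455), without litter 1 (adjusted p = 0.074) or without litter 2 (adjusted p = 0.12). Sensory neurons and mesangial cells are known to express Piezo2. The neural sums were carried by Tubb3, at 9.27 and 4.40 CPM, and Elavl4, at 7.16 and 5.00 CPM (means, high and low adhesion). On the pericyte, mesangium and smooth muscle list, Rgs5, Cspg4 and Gata3 were lower at high adhesion and Myh11 was higher. The part of cell composition in the fall of Piezo2 was not tested.

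Piezo1 (ENSMUSG00000014444) was the channel of highest level. It had 90.0, 81.0 and 78.2 CPM at high adhesion in litters 1, 2 and 3, against 82.5, 72.4 and 71.5 CPM at low adhesion. The high adhesion library was the higher one in 3 of 3 litters, yet the groups overlapped because litter 1 stood above the others. Means were 83.1 ± 6.18 and 75.5 ± 6.13 CPM (SD, n = 3 each). The log2 fold change of 0.14 ± 0.05 did not pass (edgeR adjusted p = 0.0928), and its unadjusted 95% interval ran from 0.03 to 0.24. The within-litter log2 differences were 0.12, 0.16 and 0.13. A change in the same direction in all litters was seen in 41.2% of all tested genes. In the reference annotation Piezo1 shares exon sequence with Ctu2 on the opposite strand, over stretches of up to 2441 bases. The strand setting of the counting is not given in the sources used here. Ctu2 averaged 44.3 ± 3.84 and 45.7 ± 5.04 CPM (SD, n = 3 each) and had a log2 fold change of -0.04 (edgeR adjusted p = 0.767).

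The balance of the PIEZO messages was compared per exon length, as CPM per kb. Piezo2 over Piezo1 was 0.0786, 0.0878 and 0.0967 in the high adhesion libraries of litters 1, 2 and 3, against 0.126, 0.129 and 0.163 in the low adhesion libraries. Piezo1 was thus the predominant PIEZO message in all 6 libraries, and the ratio was lower at high adhesion in 3 of 3 litters without overlap between the groups. The mean log2 difference of the ratio was -0.66. An exact paired permutation test over litters, two-sided, gave p = 0.25. That is the smallest p that 3 pairs allow, so the test could not decide the question. The ratio contains the Piezo2 values given above, so its fall is not a separate result.

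Kcnk2 (ENSMUSG00000037624) was near the detection limit in most libraries. It had 12, 35 and 8 counts at high adhesion in litters 1, 2 and 3, against 5, 27 and 2 counts at low adhesion. In CPM these were 0.929, 2.81 and 0.59 at high and 0.381, 2.05 and 0.151 at low adhesion. High adhesion was above low adhesion within every litter, but both litter 2 libraries exceeded all others and the groups overlapped. The log2 fold change of 0.75 ± 0.30 did not pass (edgeR adjusted p = 0.13). Its unadjusted 95% interval ran from 0.13 to 1.37, so these counts leave the size of a difference poorly fixed. Kcnk2 passed the filter on low counts through libraries of both groups. An opposite-strand gene, A430027H14Rik, shares an exon stretch of 402 bases with it in the annotation.

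Tmem63a (ENSMUSG00000026519) had 8.44, 10.5 and 6.79 CPM at high adhesion in litters 1, 2 and 3, against 6.02, 11.4 and 6.57 CPM at low adhesion. The direction differed between litters, with 2 higher and 1 lower. The fitted log2 fold change was 0.11 ± 0.12 (edgeR adjusted p = 0.684). It shares 64 exon bases with 2210411M09Rik on the opposite strand.

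Among the TRP channels, Trpm7 (ENSMUSG00000027365), which encodes a fused channel and kinase that carries magnesium and calcium, varied little between libraries. It had 29.0, 30.0 and 30.0 CPM at high adhesion, against 31.8, 28.7 and 28.1 CPM at low adhesion. The high adhesion range lay inside that of low adhesion. The log2 fold change was 0.0068 ± 0.07, with a 95% interval of -0.14 to 0.15 (edgeR adjusted p = 0.971).

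Trpc1 (ENSMUSG00000032839), a subunit of receptor- and store-linked cation channels, had 5.03, 4.66 and 4.50 CPM at high adhesion, against 4.72, 6.60 and 4.61 CPM at low adhesion. The low adhesion library of litter 2 stood above the other 5. The log2 fold change of -0.16 ± 0.15 did not pass (edgeR adjusted p = 0.599), and without litter 2 it was 0.03 (adjusted p = 0.96).

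Trpv4 (ENSMUSG00000014158), a calcium channel opened by osmotic swelling and known from renal epithelium and endothelium, was read from 6 to 17.5 counts. It had 1.16, 0.482 and 1.29 CPM at high adhesion, against 0.609, 0.607 and 0.868 CPM at low adhesion. The litters disagreed in direction, and the log2 fold change of 0.48 ± 0.34 did not pass (edgeR adjusted p = 0.459). Its 95% interval of -0.22 to 1.18 shows how little these counts resolve.

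Trpc6 (ENSMUSG00000031997), a podocyte channel mutated in familial kidney disease, was not tested. It had 0, 6.25 and 0.5 counts at high adhesion, against 1, 5 and 2 counts at low adhesion in litters 1, 2 and 3. Litter 2 alone exceeded the floor of 3 counts on either substrate. No fold was computed for it.

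Both polycystin messages were well detected and neither passed. Pkd1 (ENSMUSG00000032855) had 19.2, 25.9 and 21.2 CPM at high adhesion in litters 1, 2 and 3, against 20.1, 21.2 and 25.2 CPM at low adhesion. Litters 2 and 3 went opposite ways, and the log2 fold change was -0.01 ± 0.09 (95% interval -0.19 to 0.17, edgeR adjusted p = 0.962). The annotation places Tsc2 on the opposite strand, sharing exon stretches of up to 693 bases with Pkd1. Tsc2 had a log2 fold change of 0.0011 (edgeR adjusted p = 0.995).

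Pkd2 (ENSMUSG00000034462) had 31.5, 43.8 and 47.9 CPM at high adhesion in litters 1, 2 and 3, against 32.6, 51.5 and 52.4 CPM at low adhesion. It was the lower one at high adhesion in 3 of 3 litters, by log2 differences of -0.05, -0.23 and -0.13, while litter 1 lay far below the other litters on both substrates. The log2 fold change of -0.14 ± 0.06 did not pass (edgeR adjusted p = 0.17). Pkd2 held fractional counts in 5 of 6 libraries, and how those fractions arose is not given in the sources used here.

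**Figure D3:**
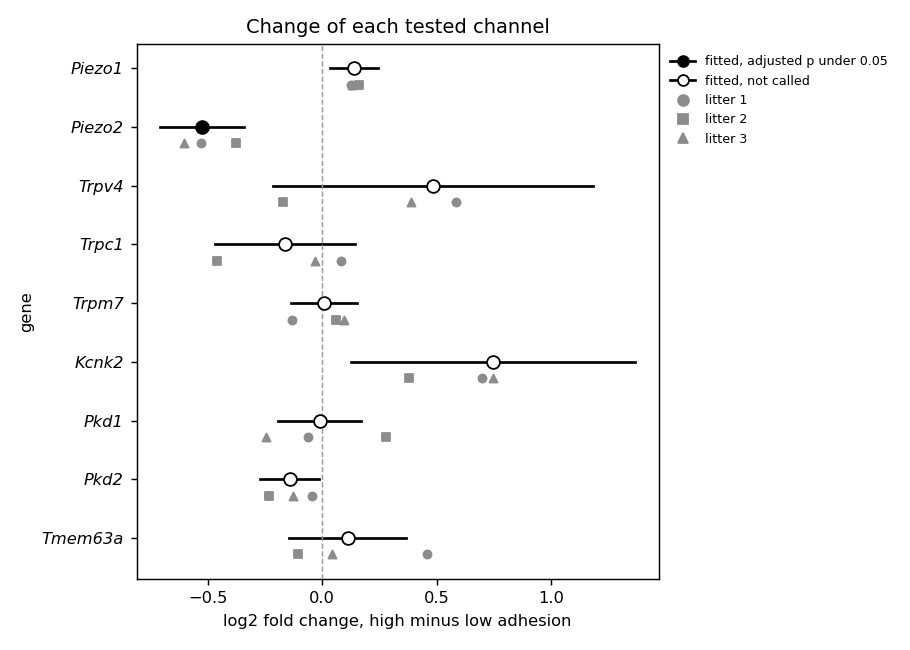
Log2 fold change, high minus low adhesion (x axis), of the 9 tested channels (y axis); circles with bars are the fitted value and its unadjusted 95% interval, filled where the adjusted p is under 0.05, and grey symbols are the differences within each litter on log2(CPM + 0.5). Piezo2 at -0.52 is the single filled point, and the intervals of Trpv4 and Kcnk2, the channels with the fewest counts, are the widest.

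Levels of different channels were compared per kb of annotated exon. Piezo1 led with 8.36 ± 0.62 CPM per kb at high and 7.60 ± 0.62 CPM per kb at low adhesion (SD, n = 3 each). Pkd2 followed with 4.04 ± 0.84 and 4.47 ± 1.10, and Trpm7 with 2.62 ± 0.05 and 2.61 ± 0.18 CPM per kb. Below them came Tmem63a, Pkd1, Piezo2 and Trpc1, with means over all 6 libraries of 1.84, 1.27, 0.89 and 0.63 CPM per kb. Kcnk2, Trpv4 and Trpc6 closed the order at 0.23, 0.21 and 0.04 CPM per kb. Piezo1, Pkd2 and Trpm7 had separate ranges over the 6 libraries. From Trpm7 down to Trpv4 each neighbour overlapped the next in range, although all but 1 of these pairs kept their order within 6 of 6 libraries. Kcnk2 and Trpv4 could not be ordered, since Kcnk2 was the higher one in 2 of 6 libraries. The order was the same with the longest annotated transcript as the length. Libraries were made by tagmentation of cDNA from captured mRNA, and where along the message the reads fell was not analysed here, so length scaling is approximate.

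**Figure D4:**
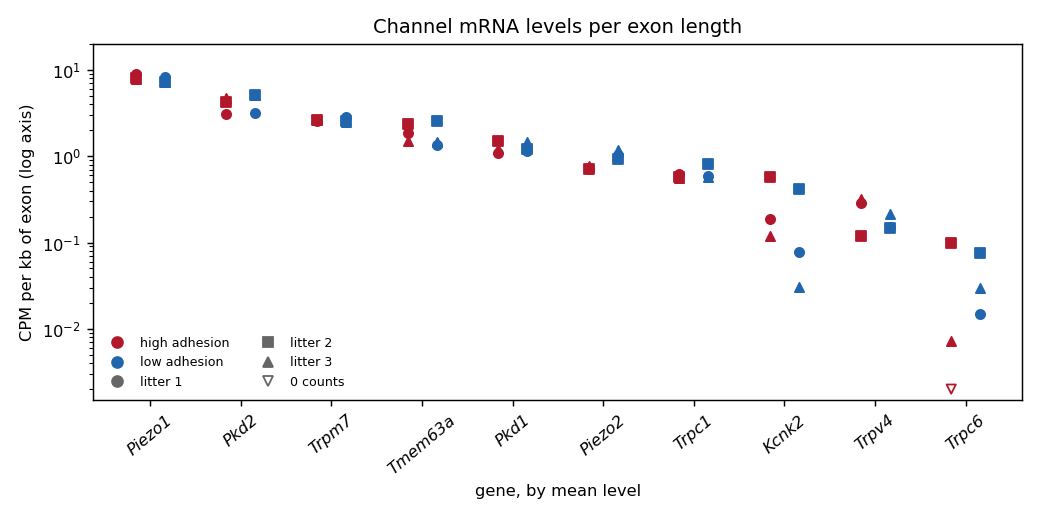
CPM per kb of exon (y axis, log scale) of the 10 channels, ordered by mean level (x axis), with high adhesion at the left and low adhesion at the right of each gene and a symbol for each litter; an open triangle marks a library with 0 counts. Piezo1 lies between 7.20 and 9.06 CPM per kb in all libraries, and Trpc6 lies under 0.1.

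More of these channels passed a test between litters than between substrates, as did more of all 14834 tested genes (2655 and 1416). The litter test compares 3 litters and the substrate test 2 groups, so these counts are not like measures. In the same fit, 4 of 9 tested channels passed the test for a difference between litters, beside a background of 17.9% of all tested genes. Without litter 1 the count was 2 of 9 tested channels, beside 1467 of 14832 genes. Without litter 2 it was 2 of 8, beside 1392 of 15073 genes, and without litter 3 it was 3 of 8, beside 2628 of 15001. Averaged over both substrates, Pkd2 had 32.0, 47.7 and 50.1 CPM in litters 1, 2 and 3 (n = 2 libraries each, edgeR litter adjusted p = 8.33e-07). Kcnk2 had 0.655, 2.43 and 0.371 CPM (edgeR litter adjusted p = 1.35e-05), so it was high in litter 2 alone. Tmem63a was also highest in litter 2, with 7.23, 10.9 and 6.68 CPM in litters 1, 2 and 3 (edgeR litter adjusted p = 0.00131). Piezo1 was highest in litter 1, with 86.3, 76.7 and 74.9 CPM (edgeR litter adjusted p = 0.0377). Piezo2 had 15.1, 14.2 and 16.6 CPM and did not pass the litter test (edgeR litter adjusted p = 0.333).

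Cell type markers differed between the same litters, and their counts stand beside the litter background of 17.9% of all tested genes. Myh11, smooth muscle myosin, had 10.7 and 4.85 CPM in the high and low adhesion libraries of litter 2 and 0.755 to 1.33 CPM in the other 4 libraries. Kcnmb1, the smooth muscle subunit of a calcium-activated potassium channel, had 2.89 and 1.82 CPM in litter 2 and 0.378 to 0.774 CPM elsewhere; it was chosen after its values were seen. Of 8 pericyte, mesangium and smooth muscle markers 4 passed the litter test, and the sum of all 8 was 342 to 351 CPM in litter 2 against 251 to 289 CPM in the other litters. Gata3, which is also on the epithelial list, passed and was highest in litter 3 (edgeR litter adjusted p = 0.00547). It had 39.0 and 50.8 CPM in litter 3, against 32.4 and 44.5 CPM in litter 2 (high and low adhesion). Rgs5 and Cspg4 did not pass (edgeR litter adjusted p = 0.0624 and 0.428). Of 7 macrophage and leukocyte markers 6 passed it, with sums of 61.8 to 66.9 CPM in litter 1 and 28.5 to 34.3 CPM in the others. Of 7 tested renal epithelium markers 3 passed it, with sums of 553 to 792 CPM in litter 1, 261 to 393 CPM in litter 2 and 377 to 643 CPM in litter 3. These sums were carried by Krt18, with 492 to 727, 200 to 332 and 309 to 575 CPM in litters 1, 2 and 3. The litter test was also passed by 6 of 9 stroma, 3 of 7 endothelial, 3 of 5 nephron progenitor and 3 of 4 tested podocyte markers. Endothelial sums were 103 and 90.3 CPM in the high and low adhesion libraries of litter 2 and 70.9 to 81.2 CPM in the other litters. The part of cell composition in the litter differences of Kcnk2, Tmem63a, Pkd2 and Piezo1 was not tested.

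Genes that work with these channels were read from 13 lists of relatives, partners and calcium handling genes. Of their 162 genes 86 were tested, 8 rose and 6 fell at high adhesion. That is 16.3% called, beside the background of 9.55% in either direction, 4.71% higher and 4.83% lower. The median log2 fold change of the 86 was 0.03. DESeq2 with litter called 5 of the 86, beside 406 of all 14834 tested genes. EdgeR without the replicate block called 0, beside 36 of 14834, and passed 16 at an unadjusted p of 0.05, beside 1359. Without litter 3 edgeR called 8 of 87, beside 844 of 15001.

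Of 6 tested PIEZO auxiliary and trafficking genes 1 rose and 5 did not pass. This count and those of the next 2 lists stand beside the background of 9.55% of all tested genes. Stom, which encodes the membrane scaffold stomatin, rose to 13.8 ± 0.83 CPM at high adhesion, against 9.83 ± 0.87 CPM at low adhesion (SD, n = 3 each, edgeR adjusted p = 0.0017, adjusted p = 0.0578 without litter 3). Mdfic, an auxiliary subunit of PIEZO channels, had a log2 fold change of -0.03 (edgeR adjusted p = 0.869). Among 6 tested polycystin relatives and cilium partners Bicc1 fell and 5 did not pass. Bicc1, an RNA-binding protein that regulates Pkd2 in mouse kidney, had 46.4 ± 5.72 and 59.6 ± 4.94 CPM at high and low adhesion (SD, n = 3 each, edgeR adjusted p = 0.000112). Of 4 tested volume-regulated anion channel subunits Lrrc8b and Lrrc8c rose, with log2 fold changes of 0.45 and 0.21. Lrrc8b did not pass without litter 2 (adjusted p = 0.101) and Lrrc8c did not pass without litter 3 (adjusted p = 0.196). In DESeq2 Stom, Lrrc8b and Lrrc8c did not pass (adjusted p = 0.155, 0.416 and 0.175).

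In 4 further families most members held too few counts to be tested. Tested were 4 of 12 TMEM63 and TMC relatives, 4 of 21 other TRP channels, 3 of 13 other two-pore-domain potassium channels and 1 of 7 ENaC and ASIC channels, and none of these passed, beside the background of 9.55%. At an unadjusted p of 0.05 edgeR passed 1 TMEM63 or TMC relative and 1 other TRP channel, beside 3250 of all 14834 tested genes. DESeq2 called 0 genes in any of these families, beside 406 of 14834. Tmem63b, the relative of Tmem63a with the highest level, had 54.2 and 48.7 CPM at high and low adhesion (edgeR adjusted p = 0.103). Of 8 hemichannel and connexin genes 5 were tested, Gja3 fell by 1.16 on the log2 scale and Panx1 rose by 0.28. Panx1 did not pass without litter 1 (adjusted p = 0.21) or litter 3 (adjusted p = 0.138), nor in DESeq2 (adjusted p = 0.555).

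Most calcium entry and removal genes did not pass, and the counts below stand beside the background of 9.55% of all tested genes. Of 11 tested store-operated and intracellular channel genes 2 rose, Orai1, the plasma membrane pore, by 0.28 and Stim1, its sensor in the endoplasmic reticulum, by 0.38 on the log2 scale. Orai1 did not pass without litter 2 (adjusted p = 0.0715) or litter 3 (adjusted p = 0.363), nor Stim1 without litter 1 (adjusted p = 0.387) or litter 3 (adjusted p = 0.126). In DESeq2 Orai1, Stim1, Cacnb2 and Cacna2d1 did not pass (adjusted p = 0.555, 0.556, 0.457 and 0.0998). Of 9 tested voltage-gated channel genes the accessory subunit Cacnb2 rose and the accessory subunit Cacna2d1 fell, with log2 fold changes of 0.69 and -0.30. Cacnb2 did not pass without litter 1 (adjusted p = 0.142) or litter 3 (adjusted p = 0.179), nor Cacna2d1 without litter 3 (adjusted p = 0.0503). Of 5 tested pumps and exchangers Atp2b1, a plasma membrane calcium pump, fell to 164 ± 6.11 CPM at high adhesion, against 198 ± 9.40 CPM at low adhesion (SD, n = 3 each, edgeR adjusted p = 0.000149).

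Of 20 tested calcineurin, NFAT and calmodulin genes 1 rose, 1 fell and 18 did not pass. That is 10% called, near the background of 9.55% of all tested genes, which also stands beside the calcium-activated channels below. Nfatc1, a calcium-controlled transcription factor, fell to 13.9 ± 2.32 CPM at high adhesion, against 21.7 ± 2.33 CPM at low adhesion (SD, n = 3 each, edgeR adjusted p = 5.58e-06). Capn2, a calcium-dependent protease that cuts adhesion proteins, rose to 162 ± 4.64 CPM, against 136 ± 14.9 CPM at low adhesion (edgeR adjusted p = 0.00114). Rcan1, a calcineurin inhibitor that NFAT induces, had a log2 fold change of 0.09 (edgeR adjusted p = 0.571). Of 8 tested calcium-activated channels the anoctamin gene Ano8 fell by 0.39 on the log2 scale. It did not pass without litter 1 (adjusted p = 0.0536) or litter 3 (adjusted p = 0.26), nor in DESeq2 (adjusted p = 0.505). Between litters 19 of the 86 tested genes passed, or 22.1%, beside the background of 17.9%.

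**Figure D5:**
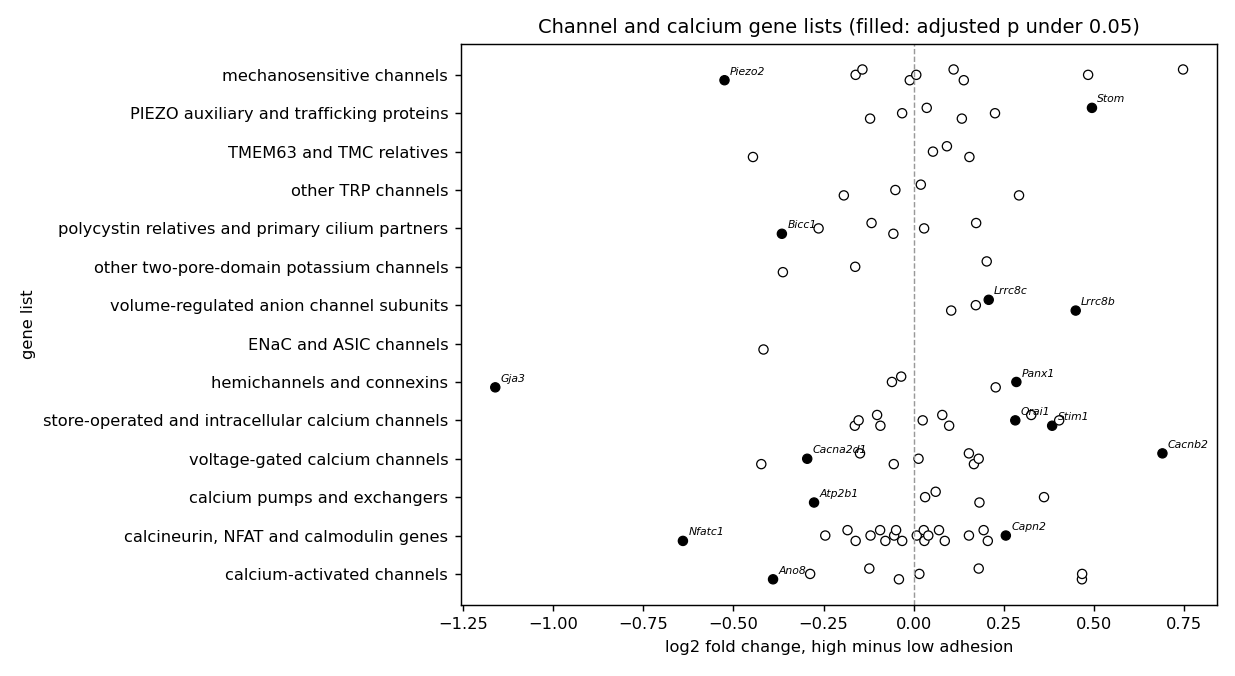
Log2 fold change, high minus low adhesion (x axis), of every tested gene in the mechanosensitive channel set and in 13 lists of related genes (y axis); filled, named points have an adjusted p under 0.05 and open points do not. Gja3 at -1.16 and Nfatc1 at -0.64 lie farthest to the left of the named points and Cacnb2 at 0.69 farthest to the right.

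The remaining marker lists were compared between the substrates as background to the channels. Of 7 endothelial markers 1 rose and 1 fell, of 7 tested epithelial markers 3 rose and 1 fell, and of 5 nephron progenitor markers 1 rose. The epithelial marker that fell was Gata3, which is also counted above among the pericyte, mesangium and smooth muscle markers. Of 4 tested podocyte markers 1 rose, of 7 macrophage and leukocyte markers 1 rose, and neither tested erythroid marker passed (0 at an unadjusted p of 0.05 in edgeR and 0 in DESeq2). These counts stand beside the background of 9.55%. DESeq2 called 0 nephron progenitor, podocyte and macrophage markers, and the endothelial marker Emcn did not pass in it (adjusted p = 0.163). Podxl (adjusted p = 0.268) and Lyz2 (adjusted p = 0.283) did not pass in edgeR without litter 1, nor Cited1 (adjusted p = 0.196) and Emcn (adjusted p = 0.0656) without litter 3. Summed levels at high and low adhesion were 73.9 to 103 and 70.9 to 90.3 CPM for endothelium, 393 to 792 and 261 to 553 CPM for epithelium, and 28.5 to 66.9 and 31.6 to 61.8 CPM for macrophages. The epithelial sums were carried by Krt18, with 332 to 727 CPM at high and 200 to 492 CPM at low adhesion.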

How the data were processed

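Messenger RNA of 6 libraries was measured, 3 per substrate. The submitters' processing notes name GRCm39 as the build. They list STAR 2.7.11 and featureCounts from Subread 2.1.1, with fastp 0.24.0, SAMtools 1.22.1, FastQC 0.12.1 and MultiQC 1.32 beside them. Annotation release, strand setting and the rule for multiply matching reads were not stated. The authors deposited estimated counts per gene, unscaled and partly fractional, and CPM of the same counts, per the file headers. These deposited CPM differ from CPM recomputed from the counts by at most 5.1e-11.

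Counts were rounded and fitted with edgeR 4.0.16 in R 4.3.3 over all genes that filterByExpr kept, with TMM scaling (factors 0.9887 to 1.011), a robust quasi-likelihood model, litter as a block and Benjamini-Hochberg adjustment over all tested genes, two-sided at 0.05. Standard errors are the log2 fold change over the root of F. Printed CPM use unrounded counts and TMM-scaled totals. The design text calls the samples litter-matched. Same-litter libraries deviated together, with correlations across genes of 0.6, 0.606 and 0.388 for litters 1, 2 and 3, where genes are not independent replicates. The litter-blocked fit of all 6 libraries has 2 residual degrees of freedom per gene and borrows the rest of its estimate of spread from other genes. Exon lengths and overlaps came from GENCODE M21 on GRCm38, matched by gene identifier; since that build differs from the authors', no coordinates are given. DESeq2 1.42.0, limma 3.58.1 and other filters and scalings were alternatives, and the edgeR fit was tested on simulated data.

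Named genes are the channels, up to 4 called genes of lowest adjusted p per list (or the 2 of highest CPM where none was called), and the 3 genes nearest in profile to a called channel. Mdfic, Rcan1, Dcn, Vim, the marker genes near 0, Kcnmb1, Ctu2 and Tsc2 were added after their values were seen. The channels and all lists were chosen with earlier results of these data known.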

Additional observations from a re-analysis of the deposited data

How the results depend on the processing

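Piezo2 was the 1 channel called under RLE scaling, library totals, DESeq2, limma-voom, both other filters and unrounded counts, and without replicate 1, 2 or 3. Without the replicate block in edgeR 0 channels were called, and 1 passed at an unadjusted p of 0.05, beside 1359 of 14834 genes. DESeq2 gave no adjusted p for Kcnk2 and Trpv4. The filter on mean CPM tested 8 channels, as did the fits without litter 2 and without litter 3. The log2 fold change of Piezo2 ran from -0.59 to -0.47 over the fits that left out a litter. Without the replicate block 36 genes were called in place of 1416, and 0 of the related channel and calcium genes in place of 14; DESeq2 called 406 and 5. Leaving out 1 litter gave 844 to 1557 called genes, 1392 to 2628 genes and 2 to 3 channels that differed between litters (2655 and 4 with all litters), and 8 to 15 related genes. Without the filter 3 of 10 channels differed between litters, beside 2751 of 40100 genes. The alternatives for the related genes were chosen after seeing the data. Of 35 named genes called, 1 was still called without the replicate block and 16 in DESeq2, which gave an adjusted p for 34, and none reversed in any setting. Uncalled genes changed sign when a litter was left out: Pkd1 (-0.17 to 0.12), Tmem63a (-0.048 to 0.27), Trpc1 (-0.28 to 0.028), Trpm7 (-0.036 to 0.0801), Trpv2 (-0.0902 to 0.062), Tmc6 (-0.17 to 0.36), Kcnk6 (-0.39 to 0.018), Asic2 (-0.76 to 0.039), Hbb-bs (-0.79 to 0.11) and Hba-a1 (-0.79 to 0.054). Without litter 3 the last pair passed (edgeR adjusted p = 6.59e-14 and 3.99e-12). The cause was not tested. Counts of at most 35 per library limit Kcnk2, Trpv4 and Trpc6.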
